A study of Mus musculus with 6 samples.

Results

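The 10 Notch pathway genes described here are the receptors Notch1, Notch2, Notch3 and Notch4, the ligands Dll1, Dll3 and Jag1, and the target genes Hes1, Hes5 and Hey1. They were taken by gene symbol from the 24421 genes listed for each library, and all 10 were present in every library. RNA-seq was performed on TurboRFP-positive cells that had been sorted from adult olfactory bulbs, in 3 control mice (strain C57BL/6 in the sample labels and C57BL/6J in the protocol, genotype WT) and 3 Sox9 KO mice (strain C57BL/6, Sox9fl/fl), all males, with 1 library per mouse. Both groups carried the same virus, AAV-GFAP-iCre-P2a-TurboRFP, which drives the recombinase Cre and the red fluorophore from the astrocyte promoter GFAP, and both were collected 4 weeks after injection. Only the KO mice had a floxed Sox9 allele for Cre to delete, so Cre, virus and sorting were shared by the groups, while the floxed allele and the loss of Sox9 were not. The cells went straight from the sorter into lysis buffer, so they were not sorted again to measure purity, which the study judged from marker genes in the RNA-seq.

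Notch receptors are single-pass membrane proteins that are activated by Delta-like and Jagged ligands on a neighboring cell. Binding exposes the receptor to an ADAM protease and then to gamma-secretase, and the freed intracellular domain joins the DNA-binding protein RBPJ and a Mastermind coactivator in the nucleus, where it switches on Hes and Hey genes, which encode transcriptional repressors. In the adult brain the pathway is best known for maintaining neural stem cells and for its activity in astrocytes, whereas Notch3 is a known gene of mural cells and Notch4 of endothelium.

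The values, termed normalized counts, are read counts that the authors divided by a size factor for each library. Between 18242129 and 86906527 reads per library lay on genes. Sox9 stood between 4921 and 6562 normalized counts in the controls and between 52.6 and 64.3 in the KO libraries, so the targeted gene followed the labels. Genes were compared with limma on log2(normalized count + 1), a scale that understates the change of low genes, and a gene was said to rise or fall at a Benjamini-Hochberg adjusted p under 0.05 over all 18413 genes tested and at least a 1.5-fold change. Fold changes are KO over control.

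Of the 10 genes, 7 fell in Sox9 KO, 1 rose and 2 did not pass. Notch3, Hey1, Hes5, Dll1, Jag1, Notch4 and Notch1 fell, in that order of size, from a log2 fold change of −5.12 to −1.20. Notch2 rose by 1.36, while Hes1 and Dll3 did not pass. Over all genes tested, 28.8% fell and 22.2% rose at the same thresholds. The 7 of 10 is thus above the background share of falls and the 1 of 10 below that of rises. This is a description without a test, as the 10 genes were chosen with earlier results of these data known. In 8 of the 10 genes the 3 KO libraries did not overlap the 3 controls, near the 67.2% of all genes for which this held. How all genes split depends on the scaling: 5299 fell and 4090 rose as deposited, 6191 and 2936 when all libraries were scaled to the same total, and 4117 and 5342 after quantile normalization. The median log2 fold change was −1.85 over the 10 genes and −0.07 over all genes tested.

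**Figure D1:**
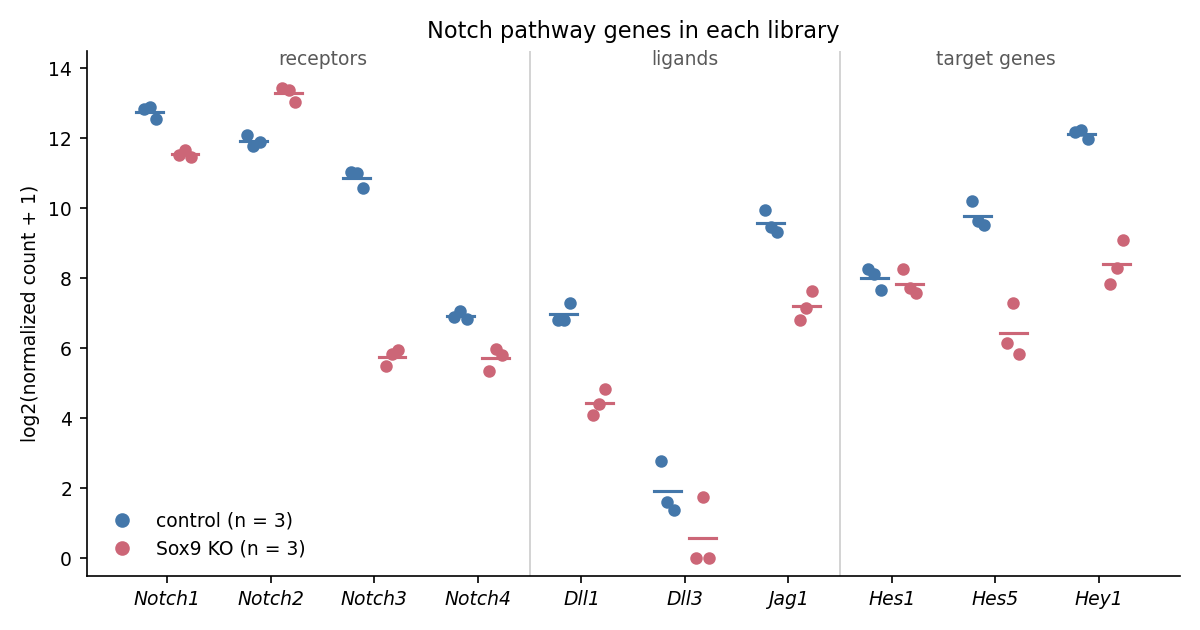
Level of the 10 Notch pathway genes in each library, as log2(normalized count + 1), with 3 control points and 3 Sox9 KO points per gene and a line at the mean of each group. The KO points lie below the control points for Notch1, Notch3, Notch4, Dll1, Jag1, Hes5 and Hey1, above them for Notch2, and among them for Dll3 and Hes1.

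Hes5 fell about 10.3-fold, and its promoter is shown first. Its window was the only one searched that held both the core of an RBPJ site and that of a SOX site, in the forms searched. The share of all windows that hold both was not counted. Whether either site has a part in the fall was not tested. Promoter windows from RefSeq (GRCm38.p6), each running from 250 bases before to 50 bases after a gene start, were found for 8 of the 10 genes, in 9 windows. Each was searched on both strands for the core of the RBPJ site (TGGGAA, or TTCCCA on the other strand), the N box bound by Hes proteins (CACNAG or CTNGTG) and the core of the SOX site (ACAATG or CATTGT). The Hes5, second Dll1 and Jag1 windows are printed because these genes fell most of the 4 whose windows hold a SOX core. The Notch2 window is printed because Notch2 rose. Notch3, which fell most of the 10 genes, and Notch1, which also fell, had no SOX core in their windows. Capitals mark the matches, every sequence reads 5′ to 3′ in the direction of the gene, and the windows lie at chr4:154960673-154960972 (plus strand) for Hes5, chr17:15376883-15377182 (minus strand) for Dll1, chr2:137116471-137116770 (minus strand) for Jag1 and chr3:98013288-98013587 (plus strand) for Notch2.
Hes5: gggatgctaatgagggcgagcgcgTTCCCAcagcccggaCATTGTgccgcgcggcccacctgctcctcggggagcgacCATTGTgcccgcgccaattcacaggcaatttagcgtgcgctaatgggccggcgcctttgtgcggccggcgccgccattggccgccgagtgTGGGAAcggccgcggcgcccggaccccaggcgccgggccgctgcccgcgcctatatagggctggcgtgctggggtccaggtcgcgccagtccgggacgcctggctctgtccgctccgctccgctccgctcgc
Dll1: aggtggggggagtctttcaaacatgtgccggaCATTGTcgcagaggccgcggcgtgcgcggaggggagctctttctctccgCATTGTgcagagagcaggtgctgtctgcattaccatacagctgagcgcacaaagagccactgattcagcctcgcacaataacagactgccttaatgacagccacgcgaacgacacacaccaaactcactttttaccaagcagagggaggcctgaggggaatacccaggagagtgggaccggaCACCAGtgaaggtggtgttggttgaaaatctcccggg
Jag1: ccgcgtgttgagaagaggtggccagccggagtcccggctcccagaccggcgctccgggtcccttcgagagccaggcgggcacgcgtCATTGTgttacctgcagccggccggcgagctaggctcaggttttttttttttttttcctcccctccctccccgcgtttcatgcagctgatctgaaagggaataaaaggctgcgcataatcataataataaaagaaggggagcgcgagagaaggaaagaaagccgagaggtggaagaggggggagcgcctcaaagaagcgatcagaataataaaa
Notch2: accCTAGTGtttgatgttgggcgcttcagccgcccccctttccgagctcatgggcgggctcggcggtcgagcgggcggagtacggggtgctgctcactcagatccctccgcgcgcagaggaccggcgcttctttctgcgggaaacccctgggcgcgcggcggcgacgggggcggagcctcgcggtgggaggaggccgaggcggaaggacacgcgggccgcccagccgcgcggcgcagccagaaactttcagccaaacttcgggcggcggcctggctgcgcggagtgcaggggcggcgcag

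In the Hes5 window the RBPJ core occurred 226 and 82 bases before the start and the SOX core 211 and 172 bases before it. Hes5 was the only gene of the 8 with an RBPJ core in its window. The other target genes of the set, Hes1 and Hey1, had no window, so Hes5 was compared with receptors and ligands only. At least 1 RBPJ core was present in 25.6% of all 32851 promoter windows of this length and at least 2 in 3.79%. SOX cores were found in Hes5 (2), in the second Dll1 window (2), in Jag1 (1) and in Notch4 (1), against 12.6% of all windows with at least 1 and 1.11% with at least 2. The N box was present in Notch1 (3 matches, of which CACTAG and CTAGTG overlap), Notch3 (2), Notch2 (1) and the second Dll1 window (1), against 42.5% of all windows. The windows of Dll3 and the first of Dll1 held none of the 3 motifs. Only the forms of the 3 motifs given above were searched, so other forms of the same sites are neither marked nor counted. These matches describe letters in a short window and were not tested for binding.

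Among the receptors, Notch1 and Notch2 moved in opposite directions. Notch1 (chr2:26457903-26516663, minus strand, GENCODE M21 on GRCm38) had 7272, 7558 and 6002 normalized counts in the controls, given here and throughout in the order of replicates 1, 2 and 3, against 2932, 3263 and 2844 in KO. Every KO library lay below every control, and the KO mean was 43.4% of the control mean (control 6944 ± 828, KO 3013 ± 221, SD, n = 3 per group). Its log2 fold change was −1.20 ± 0.11 (SE, here and below, limma, adjusted p = 4.5e-06). Notch2 (chr3:98013527-98150361, plus strand) had 4387, 3480 and 3773 normalized counts in control against 10980, 10596 and 8445 in KO. All 3 KO libraries stood above all 3 controls, and Notch2 rose 2.57-fold (log2 fold change 1.36 ± 0.12, limma, adjusted p = 4.9e-06).

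Notch3 fell most of the 10 genes. This receptor gene (chr17:32120820-32166852, minus strand) had 2103, 2050 and 1529 normalized counts in control against 43.7, 56.5 and 60.8 in KO, which left 2.83% of the control mean. In reads, these were 1439, 2979 and 970 in control and 44, 143 and 40 in KO, so the KO levels rest on few reads in replicates 1 and 3. Its log2 fold change, −5.12 ± 0.19 (limma, adjusted p = 1.5e-08), lay at percentile 0.32 of all genes tested, counted from the largest fall. Notch4 (chr17:34564268-34588503, plus strand) was the lowest receptor per kb of exon in control and overlapped Notch3 in KO. It had 117, 133 and 113 normalized counts in control against 39.7, 62.0 and 54.7 in KO. Its groups did not overlap, and it fell by 1.22 (SE 0.27, log2 scale, limma, adjusted p = 0.0028). Notch4 was the only one of the 8 called genes to lose its call under an alternative, with a log2 fold change of −0.38 (adjusted p = 0.21) after quantile normalization.

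Because the receptors moved apart, their mixture differed between the groups. Per kb of exon, Notch1 made up 42.9%, 47.3% and 43.3% of the summed receptor level in control and 16.7%, 18.7% and 20.03% in KO. Notch2 made up 34.1%, 28.7% and 35.9% in control against 82.5%, 80.1% and 78.5% in KO. The share of Notch3 was between 19.4% and 22.6% in control and between 0.44% and 0.75% in KO, and that of Notch4 between 1.22% and 1.47% in control and between 0.40% and 0.68% in KO. In none of the 4 receptors did the groups overlap, and each gave p = 0.1 in an exact permutation test (two-sided, also 0.1 after Benjamini-Hochberg adjustment over the 4 receptors), which is the smallest p that 3 libraries against 3 allow. The shares do not change when a library is multiplied by a single factor, and they were not computed after quantile normalization. The sum itself was 1192, 1124 and 975 normalized counts per kb in control and 1235, 1227 and 997 in KO, so the groups overlapped, and its log2 ratio of 0.07 turned negative when all libraries were scaled to the same total, with the longest transcript as the length, and without control replicate 3.

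**Figure D2:**
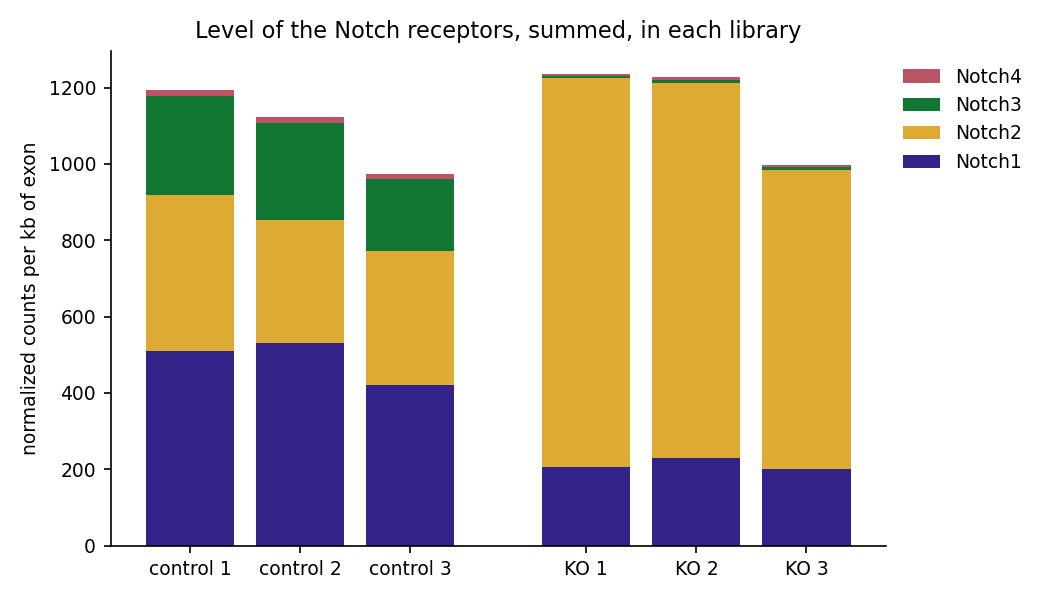
Stacked bars of the 4 Notch receptors in each library, in normalized counts per kb of exon from 0, so that the bar height is the summed receptor level. Bar heights overlap between the 3 controls (975 to 1192) and the 3 Sox9 KO libraries (997 to 1235), while Notch2 takes between 78.5% and 82.5% of each KO bar against between 28.7% and 35.9% of each control bar.

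Of the ligands, Jag1 and Dll1 fell and Dll3 did not pass. Jag1 (chr2:137081456-137116644, minus strand), a Jagged ligand, was the highest of the 3 per kb in control, at 979, 701 and 638 normalized counts against 110, 141 and 199 in KO. The highest KO library was below the lowest control, and Jag1 fell by 2.37 (SE 0.24, log2 scale, limma, adjusted p = 1e-05). Dll1 (chr17:15367354-15376872, minus strand), a Delta-like ligand, had 111, 111 and 156 normalized counts in control and 15.9, 20.1 and 27.3 in KO, from 16, 51 and 18 reads. Again no library overlapped, and Dll1 fell by 2.54 (SE 0.33, limma, adjusted p = 7.1e-05). Both ligands were lowest in KO replicate 1 and highest in KO replicate 3, at 14.3% and 25.8% of the control mean for Jag1 and at 12.6% and 21.7% for Dll1. Dll3 (chr7:28293553-28302238, minus strand), a divergent ligand that does not activate receptors on other cells, received 4, 3 and 1 reads in control against 0, 6 and 0 in KO. Its groups overlapped (log2 fold change −1.33, 95% interval −3.13 to 0.46, limma, adjusted p = 0.18), and at this depth no difference was detectable.

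Of the target genes, Hey1 and Hes5 fell and Hes1 did not pass. Hey1 (chr3:8663359-8667256, minus strand) had 4660, 4840 and 4015 normalized counts in control against 227, 313 and 548 in KO. The controls varied little (coefficient of variation 9.63%) and the KO libraries more (45.8%), yet the highest KO library was far below the lowest control. Its log2 fold change was −3.72 ± 0.26 (limma, adjusted p = 6.5e-07), and −4.07 without KO replicate 3. Hes5 (chr4:154960923-154962371, plus strand), whose promoter is printed above, had 1185, 795 and 727 normalized counts in control and 69.5, 156 and 56.2 in KO. KO replicate 2 was the highest of the KO libraries, at 17.3% of the control mean, against 7.70% and 6.23% in KO replicates 1 and 3. Its log2 fold change was −3.36 ± 0.34 (limma, adjusted p = 1.2e-05), and −3.80 without KO replicate 2.

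Hes1 (chr16:30064384-30067796, plus strand), the other Hes gene of the set, had 305, 275 and 202 normalized counts in control and 305, 208 and 188 in KO. The groups overlapped over most of their range, and KO replicate 1 stood at the level of the highest control. The log2 fold change was −0.17 (95% interval −0.68 to 0.35, limma, adjusted p = 0.55) and turned to 0.33 after quantile normalization, so a fall as large as that of Hes5 lies outside the interval while a small change in either direction does not. The log2 ratio of Hes5 to Hes1, taken within each library, was 1.95, 1.53 and 1.84 in control and −2.12, −0.41 and −1.73 in KO. These ratios are not corrected for length, which shifts all 6 by the same amount. The groups did not overlap and differed by −3.19 in the mean log2 ratio (exact permutation test, two-sided p = 0.1, the smallest possible). Without KO replicate 2 the difference was −3.70.

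Per kb of exon, the order of the genes changed with the genotype. In control, Hey1 was highest with 1380 ± 133 normalized counts per kb (SD, n = 3), followed by Hes5 (662 ± 182), Notch1 (488 ± 58.2), Notch2 (360 ± 42.9) and Notch3 (234 ± 39.2). Jag1 (133 ± 31.1) and Hes1 (128 ± 26.1) overlapped each other, and Dll1, Notch4 and Dll3 were lowest, each separate from the next. In KO, Notch2 was highest with 928 ± 127 normalized counts per kb and Notch1 came next with 212 ± 15.5. Hes1 (115 ± 30.6), Hey1 (111 ± 50.9) and Hes5 (68.9 ± 39.7) then followed, each overlapping its neighbor in the order, and Notch3, Notch4 and Dll1 overlapped likewise between 6.63 and 5.01 on average. Parts of the control order depend on the length used. With the longest transcript, an alternative chosen after the data were seen, Notch1 (732 ± 87.3) and Hes5 (709 ± 194) overlapped and changed places, as did Jag1 and Hes1, and Hes1 overlapped Notch3. With either length Hey1 stood above every receptor in the controls, and Hey1 and Hes5 stood below Notch1 and Notch2 in KO.

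The wider pathway was described with 55 further genes in 6 groups by role, of which 54 passed the filter on low values. Of these, 16 fell and 21 rose, and the median was 0.22 on the log2 scale. Over all genes tested the shares were 28.8% and 22.2%. Under the same total 17 fell and 13 rose, so the balance between the directions depends on the scaling. The genes named are at most the 3 with the highest mean in each group, together with those named for another stated reason.

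Of 6 other ligands, 5 fell and none rose, with a median of −2.99 on the log2 scale. The neuronal Notch ligand Dner had 8733, 7039 and 6924 normalized counts in control and 834, 844 and 823 in KO (log2 fold change −3.17 ± 0.11, limma, adjusted p = 9.2e-09). Cntn1, a neural adhesion protein also described as a Notch ligand, changed by −2.80 and Jag2, a Jagged ligand, by −1.89 on the log2 scale, and both passed. Of 8 Hes and Hey relatives and other targets, 4 fell and none rose as deposited, while 1 rose after quantile normalization. Nrarp, a target gene whose product dampens Notch signaling, had 2452, 2284 and 1458 normalized counts in control and 102, 119 and 111 in KO, a log2 fold change of −4.17 ± 0.19 (limma, adjusted p = 5e-08). The bHLH repressor gene Bhlhe40 fell by 2.01. Its relative Bhlhe41 stood at 4394, 5168 and 6007 normalized counts in control and 6067, 7255 and 7313 in KO, under 1.5-fold (log2 fold change 0.41). Hey2 and Heyl, named after their values were seen because they are the closest relatives of Hey1, had log2 fold changes of −0.99 and −1.02 and passed. Their difference from Hey1 was not tested.

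Among genes that process and transmit the signal, more rose than fell as deposited. Of 12 genes of the nuclear complex and its corepressors, 7 rose and 2 fell, with a median of 0.63, but only 3 rose when all libraries were scaled to the same total and 4 after quantile normalization. Rbpj, the DNA-binding protein of the pathway, had 2940, 3510 and 3197 normalized counts in control and 8760, 7370 and 8574 in KO. Every KO library lay above every control, and Rbpj rose by 1.36 on the log2 scale (SE 0.10, limma, adjusted p = 1.3e-06), with values between 1.01 and 1.41 under the other scalings. The histone demethylase gene Kdm5a did not reach 1.5-fold (log2 fold change 0.58). Of 10 genes for proteases and gamma-secretase, 5 rose and 1 fell, with a median of 0.51, and 4 rose under the same total. Adam17 and Adam10, the ADAM proteases that cleave Notch receptors, rose by 1.22 and by 1.10, and the gamma-secretase subunit Ncstn by 0.97. Aph1b, the single gene of this group that fell (−1.91), was named after its value was seen.

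Of 13 ubiquitin ligases and endocytic adaptors, 7 rose and 3 fell, with a median of 0.70, and 5 rose under the same total. Itch, a ubiquitin ligase that acts on Notch among other targets, rose by 0.95 (0.57, not passing, after quantile normalization), and the Deltex genes Dtx3l and Dtx4 rose by 1.49 and by 1.02. The Deltex gene Dtx1, named after its values were seen, had 1102, 777 and 575 normalized counts in control and 42.7, 41.5 and 48.6 in KO (log2 fold change −4.13). Members of the Deltex family thus changed in opposite directions, and Dtx1, Dtx3l and Dtx4 kept their directions and calls under all 6 other scalings and tools. Among the 5 glycosyltransferases, which add sugars to Notch receptors, 2 rose and 1 fell, and 1 rose and 2 fell under the same total. The Fringe gene Mfng rose by 1.77, while Lfng, another Fringe gene, and Poglut1 had log2 fold changes of −0.41 and −0.23 and did not pass, although Lfng passed as lower under the same total (−0.66).

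**Figure D3:**
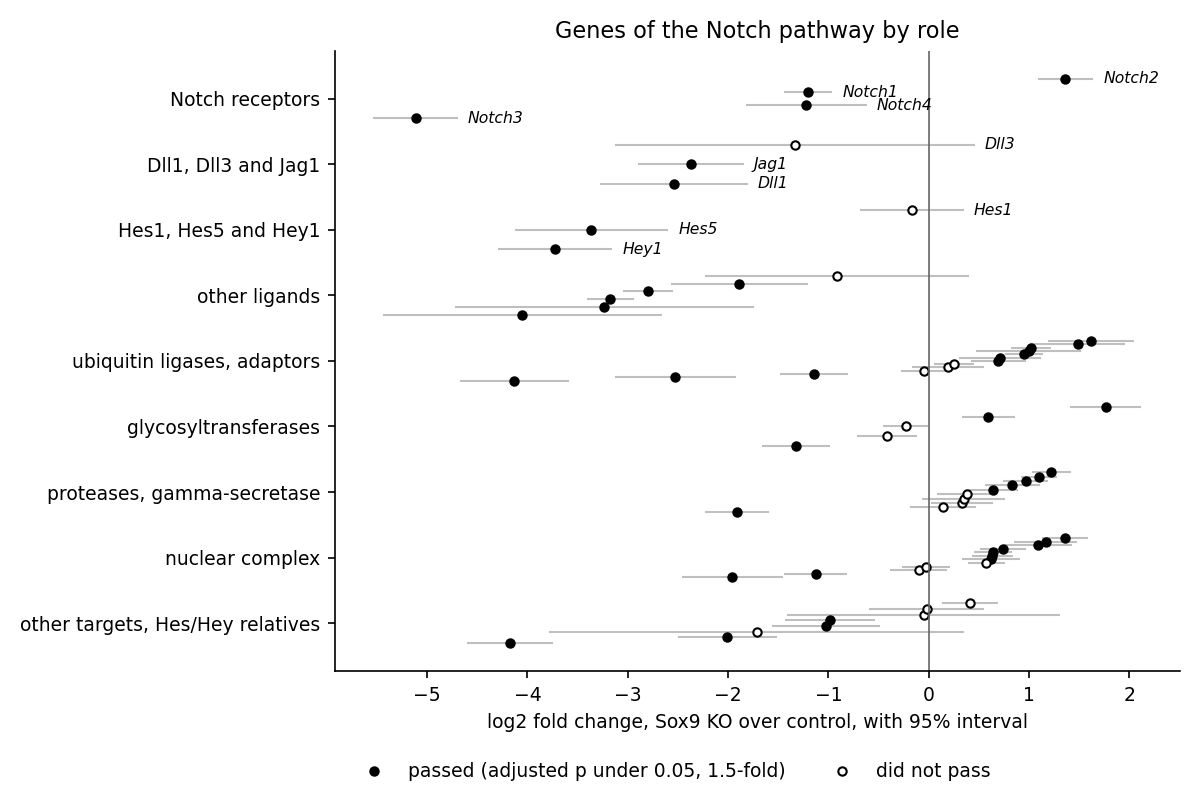
Log2 fold change of each tested gene of the Notch pathway, Sox9 KO over control, by role, with 95% intervals from limma as bars; filled points passed an adjusted p of 0.05 and 1.5-fold and open points did not. The ligands and Hes and Hey genes lie mostly to the left of 0, while 7 of 12 genes of the nuclear complex and 5 of 10 proteases and gamma-secretase genes lie to the right as filled points.

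Over the 6 libraries, the pathway genes with profiles most like that of Notch1, by root-mean-square distance between centered log2 profiles among 63 genes, were Dtx3 (0.05) and Rfng (0.11), with log2 fold changes of −1.14 and −1.32. For Hes5 they were Dlk1 (0.36) and Dner (0.46), although the KO values of Dlk1 rest on 0, 4 and 0 reads. These distances are a description over 6 libraries that share the contrast between the groups.

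Markers of the labelled cell type and of other cells also changed between the groups. In sorted bulk samples, fewer cells of a type and less RNA per cell cannot be told apart. All 8 astrocyte markers fell in KO (median −3.63 on the log2 scale), and their sum was between 441744 and 490190 normalized counts in control and between 31456 and 40064 in KO. All 7 microglia markers rose, with a median of 1.97, and their sum was between 114694 and 138096 in control and between 399795 and 498236 in KO. Microglia markers were therefore present in the controls as well, although the cells were labelled as astrocytes. None of the markers in the 11 lists was at 0 in all libraries of either group.

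Set beside these lists, Hey1 and Hes5 differed from the astrocyte median by −0.09 and 0.27 on the log2 scale, and Notch3 by −1.48. Notch1 and Hes1 lay 2.43 and 3.47 above that median. Notch2 differed from the median of the microglia markers by −0.61. The medians of the neuroblast and progenitor markers (−3.68) and of the oligodendrocyte precursor markers (−3.30) also lay near Hey1 and Hes5. Nearness of these genes to a list was therefore not particular to the astrocyte markers. The distances are differences of log2 fold changes, given without a test.

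Other lists were set beside single genes, and did not all move with them. Of the 8 mural cell markers, 4 fell, none rose and 4 did not pass, while 4 fell and 2 rose after quantile normalization. The sum of the list was between 2417 and 2630 in control and between 470 and 828 in KO, beside the fall of Notch3. Single markers of that list ranged from −3.33 to 1.16 on the log2 scale, all above Notch3 (−5.12). Of the 7 endothelial markers, beside Notch4, 3 fell and 2 rose (4 and 0 under the same total), with sums of between 1211 and 2169 in control and between 1744 and 2178 in KO. Single endothelial markers ranged from −2.43 to 1.09 on the log2 scale, so the sums join falls and rises. Neuroblast and progenitor markers, beside the ligands and Hes5, fell in 5 of 5, from sums of between 2986 and 4461 to between 111 and 281, and neuron markers fell in 6 of 6, from between 12767 and 16995 to between 2113 and 3628. Of the 11 lists, 5 had their highest KO sum in KO replicate 2, the highest KO library for Hes5 (astrocyte, neuron, neuroblast, microglia and olfactory ensheathing). Another 5 had it in KO replicate 3, the highest for Hey1, Jag1 and Dll1 (border macrophage, mural, oligodendrocyte, oligodendrocyte precursor and ependymal), and the endothelial list in KO replicate 1. All 5 oligodendrocyte markers and all 4 oligodendrocyte precursor markers fell as well, as did 3 of 5 olfactory ensheathing and 2 of 4 ependymal markers, while of 5 border macrophage markers 3 fell and 2 rose. The part of these cells in the changes of the Notch pathway genes and of the wider pathway was not tested.

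**Figure D4:**
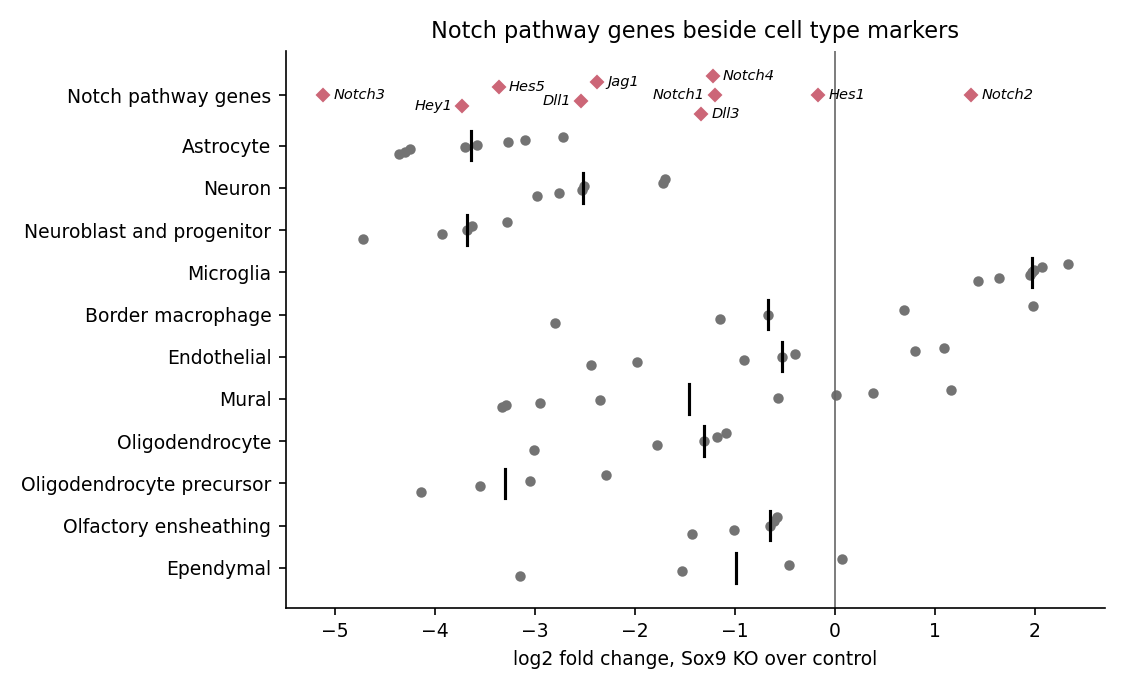
Log2 fold change (Sox9 KO over control) of the 10 Notch pathway genes, as diamonds, above that of each marker gene in 11 cell type lists, as gray points, with a black line at each list's median. Hey1 and Hes5 lie within the range of the astrocyte markers (median −3.63), Notch3 lies to the left of them, and Notch2 (1.36) lies just below the lowest microglia marker (1.43). Hey1 and Hes5 also lie within the ranges of the neuroblast and progenitor markers and of the oligodendrocyte precursor markers.

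Neither the gene annotation nor the strand setting of the counting was stated. In GENCODE M21, exons of Notch1, Notch3, Dll1 and Hes5 share between 414 and 1068 bp with an annotated RNA on the opposite strand, so reads of these RNAs could not be told apart from reads of the genes if strand was not used. Exons of Notch2 share 541 bp with the unclassified gene Gm42820 on the same strand, where strand would not separate them.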

How the data were processed

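RNA-seq reads from FACS-isolated olfactory bulb cells were processed by the authors, who aligned them to mm10 with STAR (2.5.0a), counted them over genes with GenomicAlignments and GenomicFeatures, and normalized the counts with DESeq2 (1.20.0). A depth normalization of the alignments with samtools is also described. The deposited signal values are named RPM, but within each library 100% were whole multiples of a single step (within 0.01 read), so they are counts divided by a size factor. Each read was worth between 0.395 and 1.58 normalized counts.

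Genes with a mean of at least 1 (18413, with 6008 left out) were fitted on log2(value + 1) in R 4.3.3 by limma 3.58.1 with a variance trend and no block, as 3 KO against 3 control libraries. Recovered whole reads were also tested with edgeR 4.0.16 and DESeq2 1.42.0. The fits were tested on simulated data in which few genes changed. Far more genes changed here, so the simulation does not show how the fits behave in this setting. Same-numbered control and KO libraries did not deviate together (correlations between −0.05 and −0.01 over 18413 genes). Lengths are the union of GENCODE M21 exons. Shares and ratios within a library were compared by exact permutation. p-values reflect the spread between mice, and PCR duplicates could not be told from separate molecules. The 10 genes and the lists were chosen with earlier results of these data known. The genes named are the 10, at most the 3 with the highest mean in each pathway list, Rbpj, Nrarp and Sox9, the nearest profiles, and those said to be chosen after their values were seen. The values of 1 gene that this rule would name are not reported here.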

Additional observations from a re-analysis of the deposited data

How the results depend on the processing

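Of 314 recomputed values, 299 were held to be the same. They kept their direction and their side of the threshold, or moved by less than the spread between replicates. A count of genes was held to be the same within 1.5-fold, so 6 genes lower in place of 7 after quantile normalization is among them. Leaving out each library in turn left 7 genes lower and 1 higher every time, with log2 fold changes between −1.30 and −1.14 for Notch1, between 1.29 and 1.48 for Notch2, and between −5.26 and −4.98 for Notch3. The replicate number as a replicate block changed no call (7 lower and 1 higher). edgeR and DESeq2 on whole reads gave the same 7 and 1. Quantile normalization took Notch4 to −0.38, below the threshold, and turned Hes1 to 0.33. It shifted the median of all genes by 0.26, scaling to the same total by −0.23, and scaling without Rn45s, the ribosomal RNA precursor, by −0.31. The number of other pathway genes that rose, 21, became 13 and 12 under those totals and 9 at a 2-fold threshold. Without a length correction the difference in the receptor share, in percentage points, moved from −26.0 to −31.0 for Notch1, from −20.7 to −14.3 for Notch3 and from −0.81 to −0.54 for Notch4, and with the longest transcript to −29.1 for Notch1 and −16.8 for Notch3. The log2 ratio of the summed receptor level, added after the data were seen, turned from 0.07 to −0.0785 with the longest transcript, −0.17 and −0.26 under the totals with and without Rn45s, and ranged from −0.0127 (without control replicate 3) to 0.17 with each library left out. The mean difference between Hes5 and Notch1 in control, also added then, turned from 174 to −23.1 normalized counts per kb with the longest transcript. The cause of these moves was not tested beyond the change of setting itself. Dll3 had no value at a minimum mean of 10, and its few reads limit what can be said of it.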
